A study of Mus musculus with 2 samples.

Results

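MHC class II and co-stimulation genes were examined in macrophages sorted from the livers of mouse fetuses at E15.5, on 1 microarray from wild-type (c-Maf+/+) and 1 from c-Maf KO (c-Maf-/-) embryos, both labelled as C57BL/6J. The Maf gene encodes c-Maf, a transcription factor of the bZIP family, and the design asked which genes are lower in macrophages that lack it. The sort took cells positive for Mac-1 and F4/80, and the labels name no treatment. The labels do not say how many embryos were pooled, nor which part of Maf was deleted. The listed members were H2-Aa, H2-Ab1, H2-Eb1, Cd74, Ciita, H2-DMa, H2-DMb1, Cd86, Cd80 and Cd40. Every probe set whose platform annotation named only 1 of these 10 genes was taken, which gave 23 of the 45101 probe sets on the array and covered 9 of the 10 genes. H2-DMb1 had no probe set of its own, since the 2 probe sets that carry its name also carry that of H2-DMb2.

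MHC class II molecules are heterodimers of an alpha and a beta chain that present peptides from endocytosed protein to CD4+ T cells. They assemble with the invariant chain, and the DM heterodimer then exchanges the last fragment of that chain for antigenic peptide in late endosomes. Transcription of these genes depends on CIITA, a coactivator that is recruited to the factors bound at the X and Y boxes of class II promoters. CD80 and CD86 are the ligands of CD28 and CTLA-4 and give the T cell its second signal, and CD40 is the receptor through which activated T cells license antigen-presenting cells. Macrophages of many tissues carry little class II until they meet interferon-gamma.

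Members were dim on both arrays, and 1 gene, H2-Aa, was at least 2-fold lower in the knockout after adjustment for the overall level of the arrays. H2-Ab1, H2-Eb1, H2-DMa, Cd74 and Cd80, each by its brightest probe set, lay within 2-fold on that scale. The 2 probe sets of Cd86 went in opposite directions. Ciita was below the level-adjusted floor of measurement on both arrays, and Cd40 was barely above it in wild type alone. With 1 array per genotype there is no replicate and no test, and the number of arrays limits the precision of every value here.

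Deposited values are linear signals, and the 2 arrays differed in overall brightness, with medians of 4.73 (wild type) and 2.98 (knockout) over all probe sets. Ratios are therefore given as level-adjusted log2 ratios, knockout over wild type, after quantile normalization of both arrays, beside the deposited signals. A floor was set at the median of all values, 3.70 for deposited and 3.75 for level-adjusted values, and a probe set was called measured if it reached the floor on at least 1 array. A probe set below the floor on 1 array has no ratio but a bound, given with the words at least. The median gene had a level-adjusted log2 ratio of 0.01 and a deposited one of -0.79, a shift of 0.80 that all deposited ratios below carry. For Actb, signal at the 3' end exceeded that at the 5' end 13.3-fold on the wild-type array and 6.05-fold on the knockout array, with 1.83 and 0.901 for Gapdh, so the arrays also differed in this measure of RNA quality; its part in the results was not tested. Maf itself, which checks the labels, went from 47.6 to 0.219 in its brightest probe set, at least 8.51-fold lower, and from 21.0 to 0.143 in another, at least 3.90-fold. Of the other 3 measured Maf probe sets, the only one above the floor on both arrays lay within 2-fold (4.96 to 3.25, a level-adjusted log2 ratio of 0.07). The rest were under the floor in knockout, from 5.50 to 2.03 and from 4.82 to 0.519, or at least 1.15-fold and 1.02-fold lower. A further 1 was below the floor on both arrays, and probes outside the deleted part would check nothing.

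Of the 23 member probe sets, 10 were measured and 13 were below the level-adjusted floor on both arrays. The 13 had deposited signals from 0.127 to 4.33 in wild type and from 0.0765 to 2.67 in knockout. Only 3 of the 10 measured probe sets, 1 each of H2-Aa, Cd86 and H2-DMa, reached 14.8, or 4 times the floor, in signal, and no member reached it in knockout. As deposited, 19 of the 23 probe sets and the brightest probe sets of all 9 genes were lower in knockout. Over the whole array 73.5% of probe sets and 77.1% of genes by brightest probe set were lower as deposited in the same sense, so this direction was that of most genes.

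**Figure D1:**
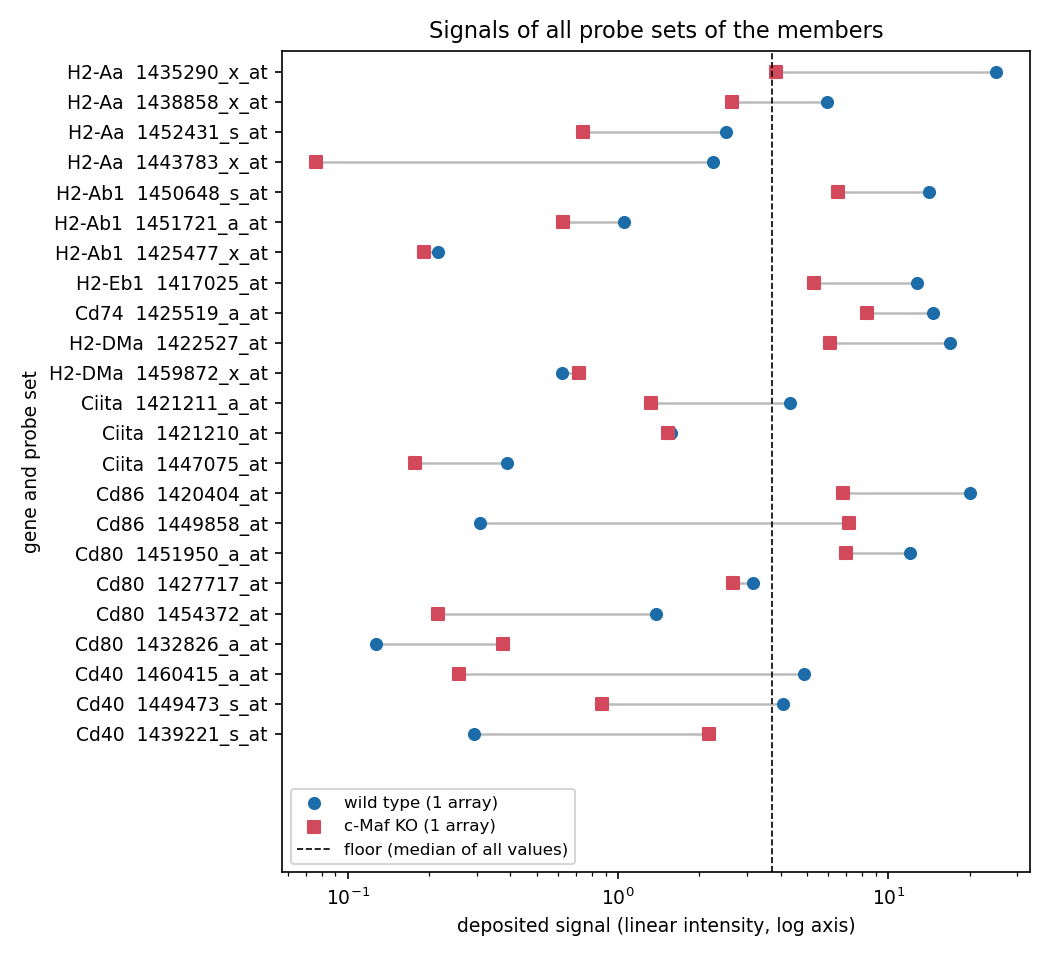
Deposited signal (linear intensity, logarithmic axis) of each of the 23 member probe sets on the wild-type array (circles) and the c-Maf KO array (squares), with 1 array per genotype and a dashed line at the floor of 3.70. All but 4 probe sets have the square to the left of the circle; the exceptions belong to H2-DMa, Cd86, Cd80 and Cd40, and only that of Cd86 reaches the floor.

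After level adjustment, the floored ratios of 8 of the 10 measured probe sets lay within 2-fold, 1 lay lower and 1 higher. Over all probe sets, 9.01% were lower by this rule and 8.41% higher, so 1 in 10 either way is near the background. Among probe sets with mean signals in the range of the measured members, 8.53% were lower and 9.6% higher. By brightest probe set, 8 of the 9 genes were measured, with 1 lower, 0 higher and 7 within 2-fold by floored ratio, the Cd40 bound among them. The background over all genes was 9.05% lower and 8.34% higher. The median over the 8 genes was -0.32, against 0.01 for all 13290 measured genes. The split rested on the scaling. On deposited values the lower calls numbered 5 of 9 genes and the higher calls 0, against a background of 39.8% lower and 1.19% higher, and the median was -1.12. By probe set these calls were 5 of 12 lower and 0 higher, where all probe sets gave 35.1% and 1.2%. Of the 10 measured probe sets, 3 passed the floor on 1 array only and so had to differ in the direction of that array. Their ratios are bounds. Those of H2-Aa 1438858_x_at and Cd40 1460415_a_at, counted within 2-fold, may therefore hide larger falls.

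The class II chains comprise H2-Aa and H2-Ab1, the alpha and beta chains of I-A, and H2-Eb1, the beta chain of I-E. The gene starts of H2-Aa and H2-Eb1 are shown because both carry the X and Y boxes through which CIITA acts. Their level-adjusted log2 ratios on these arrays were -1.82 and -0.42, and a link between the boxes and the ratios was not tested. The window of Cd80, a member outside the class II genes, is shown beside those of H2-Aa and H2-Eb1. Each runs 250 bases before to 50 after the start in the RefSeq tables of GRCm38.p6. Windows of 5 of the 10 members were examined, and none of H2-Ab1, Cd74, Ciita, Cd86 or Cd40. Capitals mark the X box core GCAAC and the Y box TGATTGG on either strand. The H2-Aa window is chr17:34287774-34288073 on the minus strand, that of H2-Eb1 chr17:34305617-34305916 on the plus strand, and that of Cd80 chr16:38458683-38458982 on the plus strand.
H2-Aa: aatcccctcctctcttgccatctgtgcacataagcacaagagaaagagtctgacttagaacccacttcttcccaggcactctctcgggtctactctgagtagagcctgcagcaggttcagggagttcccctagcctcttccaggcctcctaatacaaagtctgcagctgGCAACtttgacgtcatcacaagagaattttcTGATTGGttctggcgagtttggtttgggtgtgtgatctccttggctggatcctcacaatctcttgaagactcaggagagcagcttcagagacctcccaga
H2-Eb1: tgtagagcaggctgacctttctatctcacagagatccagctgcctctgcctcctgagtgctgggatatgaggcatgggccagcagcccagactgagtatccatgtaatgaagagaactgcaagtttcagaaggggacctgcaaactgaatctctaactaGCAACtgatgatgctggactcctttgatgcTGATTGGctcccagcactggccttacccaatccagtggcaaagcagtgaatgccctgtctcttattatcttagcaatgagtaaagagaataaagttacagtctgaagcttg
Cd80: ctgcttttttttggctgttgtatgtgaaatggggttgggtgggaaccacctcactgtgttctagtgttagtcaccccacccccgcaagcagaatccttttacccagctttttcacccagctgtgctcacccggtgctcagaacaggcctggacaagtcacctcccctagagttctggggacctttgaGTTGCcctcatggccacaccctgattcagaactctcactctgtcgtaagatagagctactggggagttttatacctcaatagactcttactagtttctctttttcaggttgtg

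Both class II windows held the X box core followed by the Y box, with 26 bases between them in H2-Aa and 25 in H2-Eb1. The Y box began 50 bases before the start of H2-Aa and 61 before that of H2-Eb1. Of 32851 promoter windows of the same length, 7.82% held TGATTGG, 35.2% held GCAAC and 0.35% held GCAAC followed by TGATTGG within 40 bases on 1 strand. The window of H2-DMb1 held a Y box but no GCAAC. Neither of the 2 H2-DMa windows held TGATTGG, nor did that of Cd80, which held GCAAC alone on the other strand. The bases TGCTGA, the core of a Maf recognition element, occurred in 19.5% of windows. Among the 5 members whose windows were examined they were found in H2-Eb1 alone, where they share 3 bases with the Y box. The other members were not searched. These matches describe the letters in the windows only, and only exact matches were counted. An X box that differs from the searched core by 1 base is therefore missed. The H2-DMb1 window held such a near match before its Y box, 1 base away from the core in H2-Eb1 and followed by the same bases. The lack of an exact core thus does not show that H2-DMb1 lacks an X box.

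H2-Aa had 4 probe sets. The brightest, 1435290_x_at, went from 25.01 in wild type to 3.85 in knockout, a level-adjusted log2 ratio of -1.82, or 3.54-fold lower. It was the only member probe set called at least 2-fold lower on that scale. The second, 1438858_x_at, went from 5.92 to 2.64, below the floor in knockout and thus at least 1.24-fold lower, although its floored ratio was 0.11 when ratios were centred on the median gene. The other 2 were below the floor on both arrays, at 2.52 and 0.742 and at 2.24 and 0.0765. All 4 were higher in wild type as deposited. None is free of a suffix: _x marks probe sets some of whose probes match other transcripts, and _s those shared by several transcripts, so the H2-Aa signal may include related class II sequences.

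H2-Ab1, whose product pairs with that of H2-Aa, was less far below 0. Its brightest probe set, 1450648_s_at, went from 14.1 to 6.51, a level-adjusted ratio of -0.21, and its suffix marks it as shared by several transcripts. The other 2 were below the floor, at 1.05 and 0.625 and at 0.215 and 0.191. H2-Eb1 had 1 probe set, 1417025_at, at 12.8 in wild type and 5.32 in knockout, with a level-adjusted ratio of -0.42. The H2-Aa ratio was thus 1.61 log2 units below that of H2-Ab1 and 1.41 below that of H2-Eb1, while the latter pair differed by 0.20. As a yardstick, probe sets of the same gene were taken in the signal range of the measured members, mean signals of 2.57 to 14.4. Only those above the floor on both arrays were used. Their ratios had an SD of 0.66 (1842 pairs in 1213 genes), which makes 0.93 the SD of a difference. This spread is no replicate error, since it comes from the same pair of arrays.

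The genes of class II assembly were within 2-fold. Cd74, the invariant chain, which blocks the groove and guides class II to endosomes, had 1 probe set, 1425519_a_at, at 14.7 in wild type and 8.38 in knockout. Its level-adjusted ratio was 0.15, while as deposited it was -0.81. H2-DMa, the alpha chain of the peptide editor DM, went from 17.0 to 6.08 in 1422527_at, a ratio of -0.56. A second H2-DMa probe set, 1459872_x_at, was below the floor on both arrays, at 0.620 and 0.720. The ratios of H2-DMa and Cd74 differed by 0.72, less than the 0.93 of the yardstick.

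Ciita, the transactivator, was not measured on the level-adjusted scale. Its brightest probe set, 1421211_a_at, read 4.33 in wild type and 1.32 in knockout, above the deposited floor on the wild-type array alone, so the deposited fall was at least 1.17-fold. The other 2 were at 1.56 and 1.53, and at 0.387 and 0.177. All 3 were lower in knockout as deposited, but a signal this low gives no ratio, and a level below the floor does not show that the transcript is absent.

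Cd86 and Cd80 encode the B7 ligands of CD28. Cd86 had 2 probe sets, drawn from the same RefSeq transcript. One, 1420404_at, went from 20.1 to 6.81, with a level-adjusted ratio of -0.60, and the other, 1449858_at, from 0.308 to 7.15, at least 2.62-fold higher. The first was higher on the wild-type array and the second on the knockout array. Their ratios differed by at least 1.99 log2 units, more than in the other 5 pairs compared here, and in opposite directions both as deposited and after level adjustment, so no direction is given for Cd86. Of 3013 genes with several measured probe sets in the members' signal range, 256, or 8.5%, had probe sets at least this far apart. Ratios on both sides of 0, at any size, occurred in 1638 of them, or 54.4%.

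Cd80 was within 2-fold. Its brightest probe set, 1451950_a_at, went from 12.1 to 6.97, with a level-adjusted ratio of 0.10 and a deposited one of -0.79. The other 3 were below the floor on both arrays, at 3.16 and 2.67, 1.39 and 0.217, and 0.127 and 0.376, and the last of these was the higher one in knockout. Cd40, the receptor of CD40 ligand, was at 4.89 in wild type and 0.258 in knockout in 1460415_a_at, at least 1.03-fold lower. Another, 1449473_s_at, went from 4.09 to 0.869, and the third, 1439221_s_at, from 0.294 to 2.17, the opposite order. Neither of these passed the level-adjusted floor.

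**Figure D2:**
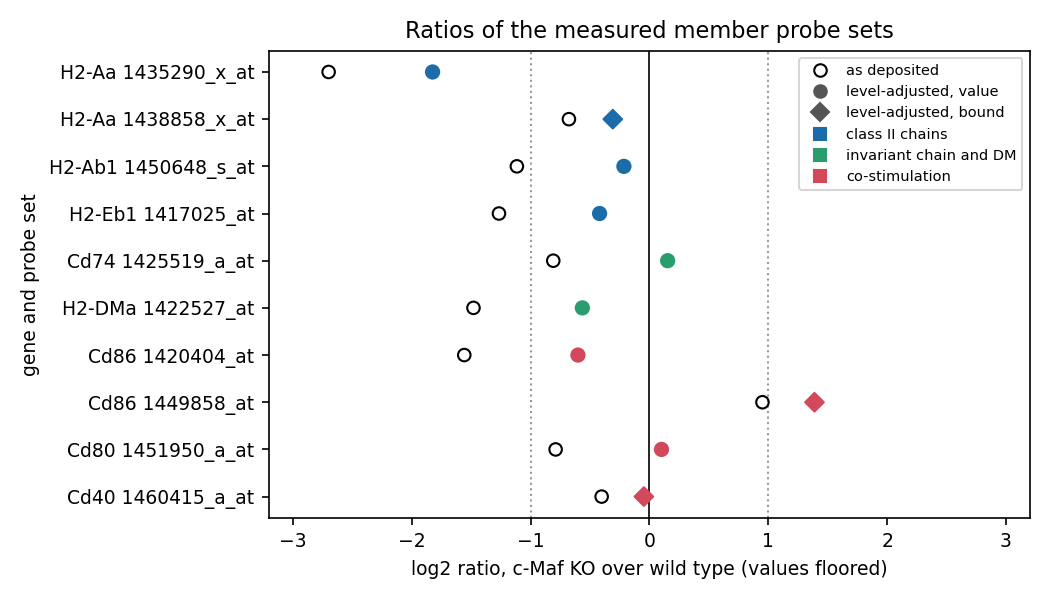
Log2 ratio of c-Maf KO over wild type for the 10 measured member probe sets, with floored values as deposited (open circles) and level-adjusted (filled, coloured by role; diamonds are bounds), and dotted lines at 2-fold. H2-Aa 1435290_x_at is at -1.82 level-adjusted, left of the 2-fold line, and Cd86 1449858_at is at 1.39 as a bound. The level-adjusted floored ratios of the other 8 lie between the lines, where diamonds mark falls that may be larger.

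**Figure D3:**
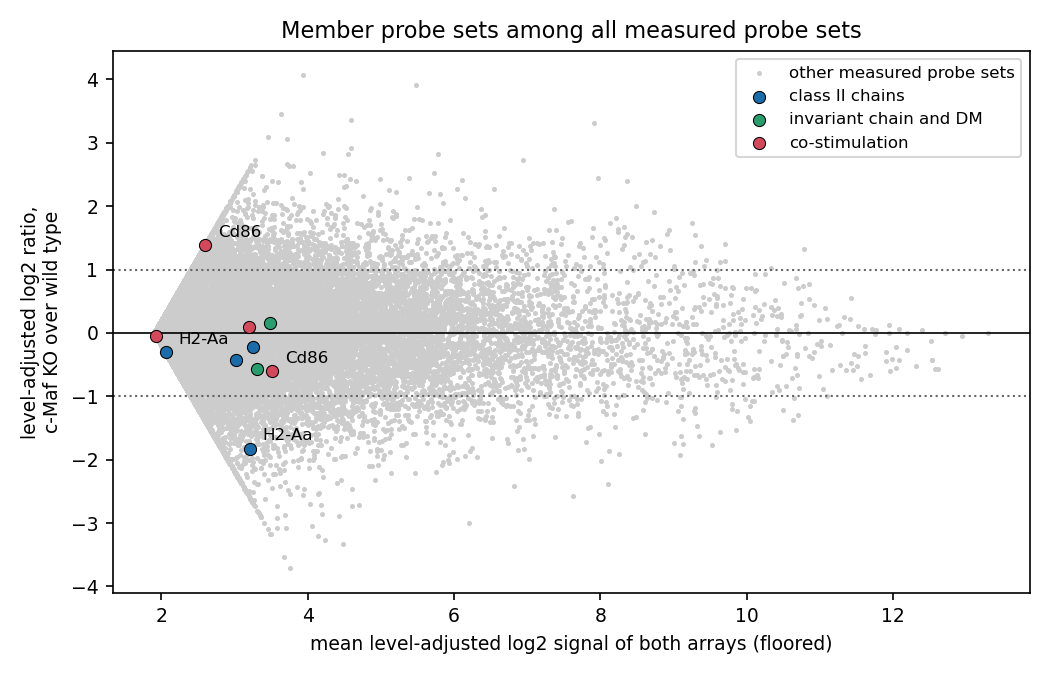
Level-adjusted log2 ratio of c-Maf KO over wild type against the mean floored log2 signal of both arrays, for all measured probe sets (grey) and the 10 member probe sets (coloured by role). The members sit at the dim end, inside the grey cloud, with 1 probe set of H2-Aa below -1 and 1 of Cd86 above 1; points on the slanted edges are bounds.

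Of 13 other genes of the class II pathway 12 were measured, with 11 within 2-fold by floored ratio, 1 higher and 0 lower, where the background was 8.34% and 9.05%. Their median was 0.55, while as deposited it was -0.39 with 1 of 12 lower and 0 higher, against 39.8% and 1.19% of all genes. Ctss, the protease cathepsin S that degrades the invariant chain, went from 142 to 119 (0.93 level-adjusted, -0.26 as deposited). Ctsl, a related protease with another probe set at 1.17, went from 23.8 to 21.3 (0.94 and -0.17), and H2-Eb2 from 6.09 to 6.61 (0.91 and 0.12). For these 3 genes the sign turned on at least 1 other scaling. H2-DMb2, the DM beta chain gene next to H2-DMb1, went from 31.9 to 17.6 in its brightest probe set, with a ratio of 0.26 that was below 0 on the other 4 scalings. Its other probe sets were at 0.94 and -0.21, and the gene was chosen after its values were seen. H2-Ea, the alpha chain of I-E, was the gene called higher, from 3.44 to 6.32, at least 2.27-fold. C57BL/6 mice are known to lack I-E because their H2-Ea allele is silent, so this was a reading above the floor for a gene not expected to be expressed, and its other 2 probe sets were below the floor.

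The factors bound at class II promoters and their coactivators had a median of -0.32, with 1 of 11 measured genes at least 2-fold lower, 0 higher and 9 below 0. As deposited the median was -1.39, with 9 of 11 at least 2-fold lower and 0 higher. Among all genes 9.05% were lower and 8.34% higher after level adjustment, and 39.8% and 1.19% as deposited. Rfx5, a subunit of the RFX complex at the X box, went from 23.0 to 6.05 (-0.98), and Rfxap, another subunit, from 9.26 to 3.88 (-0.50). Creb1, which binds beside RFX, went from 133 to 29.5 (-0.99), although another Creb1 probe set was at 0.04. Crebbp, the acetyltransferase CBP that CIITA recruits, was the gene called lower, from 20.9 to 3.48 (-1.72), and its second probe set was also at least 2-fold lower, from 16.8 to 4.33 (-1.09), while another was at -0.39. These 4 genes were below 0 on all 5 scalings.

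Along the route from interferon-gamma to Ciita, 3 of 15 measured genes were higher by at least 2-fold and 2 lower, with a median of 0.33 (as deposited, 1 higher, 4 lower and a median of -0.70). The background over all genes was 8.34% higher and 9.05% lower, and 1.19% and 39.8% as deposited. Jak1, a kinase of the interferon-gamma receptor, went from 25.9 to 64.7 (2.45), and a second probe set from 11.7 to 22.1 (1.93), with the remaining one at 0.50; the gene was above 0 on all 5 scalings. Igtp, an interferon-induced GTPase, went from 10.2 to 13.4 (1.35). Socs3, a feedback inhibitor of cytokine signalling, went from 11.0 to 13.2 (1.23) but was at -0.03 when scaled to the hybridisation controls. Another Socs3 probe set with the _x suffix was at 1.67, and the one without a suffix was at -0.15 (6.63 to 3.65). Ptpn2, a phosphatase of JAK and STAT proteins, went from 769.9 to 145 (-1.34), and its dimmer probe sets ran from -0.87 to 0.30. Irf8, a transcription factor of myeloid cells chosen after its value was seen, went from 129 to 26.5 (-1.11), with a second probe set at -0.24.

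Among other co-stimulatory and co-inhibitory ligands, 11 of 16 genes with a probe set were measured, with 0 at least 2-fold lower, 2 higher and a median of 0.15 (as deposited, 3 of 12 lower, 1 higher and a median of -0.70). Icam2, an integrin ligand, was above the floor in knockout alone, where it read 13.9, which makes it at least 5.38-fold higher. Lgals9, encoding galectin-9, a ligand of TIM-3, went from 26.8 to 47.2 (1.93). Vsir, encoding the co-inhibitory protein VISTA, went from 76.2 to 17.3 (-0.99), just short of 2-fold, with a second probe set at -0.01, and Tnfsf9, the ligand of 4-1BB, was at 9.03 in wild type and under the floor in knockout, or at least 1.83-fold lower. Downstream of CD40, 3 of 10 measured genes were at least 2-fold lower and 0 higher, with a median of -0.21 (as deposited, 5 lower, 0 higher and a median of -1.13). They were the adaptors Traf2 (18.2 to 3.19, -1.67) and Traf6 (21.3 to 5.21, -1.12, with a second probe set at -0.67) and the ubiquitin ligase gene Birc2 (94.7 to 19.5, -1.13). Nfkb2, the non-canonical NF-kB precursor, was at 0.84 (10.8 to 10.2) and below 0 as deposited. For the ligand and the CD40 lists alike, the background over all genes was 9.05% lower and 8.34% higher, and 39.8% and 1.19% as deposited.

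**Figure D4:**
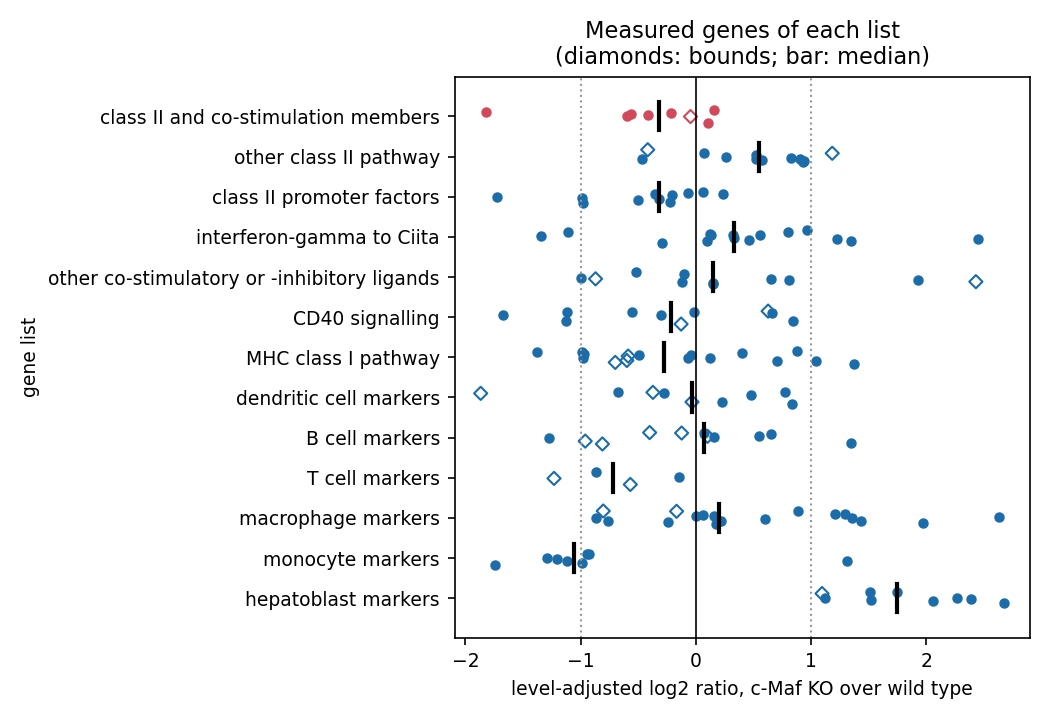
Level-adjusted log2 ratio of c-Maf KO over wild type for the measured genes of the members (top row) and of 12 other gene lists, each gene by its brightest probe set, with diamonds for bounds and a bar at the median. The member median is -0.32, that of other class II pathway genes 0.55 and that of hepatoblast markers 1.74.

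Class II is also made by dendritic cells and B cells, and transcripts of several other cell types were present on both arrays. Counts of marker genes below are level-adjusted with deposited counts beside them, and sums are of deposited signals over all genes of a list with a probe set, also those below the floor. Of 18 measured macrophage markers, 6 were at least 2-fold higher and 0 lower (1 and 5 as deposited); the 19 genes summed to 1730.3 (wild type) and 957.9 (knockout), a log2 ratio of -0.85 that was 0.23 after level adjustment. Of 9 measured dendritic cell markers, Flt3 alone, which progenitors share, was at least 2-fold lower (19.5 in wild type, under the floor in knockout, at least 3.65-fold), against 3 of 12 as deposited. The 14 genes summed to 205 and 111, a log2 ratio of -0.88 that was 0.16 after level adjustment, and Xcr1, Siglech, Ccr7, Cd209a and Ccl22 were under the level-adjusted floor on both arrays. Of 11 measured B cell markers, the surrogate light chain gene Igll1 (20.5 to 4.57, -1.27) was the lower one and Cd72 (5.89 to 8.38, 1.35) the higher one, against 3 lower and 0 higher as deposited. The 14 genes summed to 107 and 53.9, a log2 ratio of -0.99, or -0.16 after level adjustment. The brightest probe sets of Ms4a1, Rag1 and Dntt were under the level-adjusted floor, while dimmer ones of Ms4a1 (0.25) and Dntt (0.08) were measured. Of 13 T cell markers 4 were measured, with 1 at least 2-fold lower and 0 higher, against 3 and 0 as deposited. The lower one was Lat (11.9 in wild type, under the floor in knockout, at least 2.35-fold). The sum over all 13 was 60.8 and 24.3, a log2 ratio of -1.32, or -0.52 after level adjustment. The B7 receptor gene Ctla4 and Cd40lg, the CD40 ligand gene, were under the floor. Monocyte markers were at least 2-fold lower in 4 of 8 genes and higher in 1, Plac8 (473 to 586, 1.31), against 7 and 0 as deposited (sums 2776 and 1050.4). Granulocyte markers were lower in 3 of 10 and higher in 0 (8 and 0 as deposited, sums 15033 and 8652). Erythroid markers were lower in 0 of 10 and higher in 2 (3 and 0 as deposited, sums 8681 and 5553). Over all measured genes 9.05% were lower and 8.34% higher after level adjustment, and 39.8% and 1.19% as deposited. Hepatoblast markers were higher by at least 2-fold in 9 of 9 measured genes, and in 3 of 9 as deposited (sums 370.0 and 584). Their part in the class II and co-stimulation values was not tested, and in sorted bulk RNA fewer cells of a type and less RNA per cell cannot be told apart.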

How the data were processed

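Total RNA was labelled with biotin and hybridised to Affymetrix GeneChip arrays, per the labels' protocols. The authors deposited 1 linear intensity per probe set and array; their summarisation and scaling are not given in the sources used here, and no detection call was used. Of 45037 probe sets other than the 64 controls, 34945 had 1 gene symbol in the platform annotation, 932 several and 9160 none; 34741 of the first matched RefSeq's GRCm38.p6 genes by Entrez identifier. Arrays were quantile-normalized on the log2 scale (numpy 2.4.6, pandas 2.3.3, scipy 1.17.1), values floored at the 50th percentile, and genes represented by their brightest probe set (mean of both arrays). Ratios of at least 2-fold were counted, and no test was made, with 1 array per group. The steps were run on simulated data, scored only at wild-type signals brighter than those of every member. That run therefore does not cover the dim range of the members. Alternatives were 4 other scalings, other floors, thresholds and probe set rules. The members, the 14 other gene lists and the choice of scale were made with earlier results of these data known. Named in the text are all member probe sets, Maf, and of each pathway list up to 4 genes with the largest absolute ratio; marker lists are given mainly as counts and sums.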

Additional observations from a re-analysis of the deposited data

How the results depend on the processing

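No paired analysis was possible because each genotype had 1 array, and no array could be left out. The count of member genes at least 2-fold lower, 1 in the main setting, was 5 as deposited, 7 when scaled to the hybridisation controls, 2 with the 25th percentile floor, 2 at 1.5-fold and 0 with only probe sets lacking a suffix, which left 3 measured genes. It was 1 with equal medians, centred ratios, the 65th percentile floor, the floor as a pseudocount, means over probe sets and 3-fold. The count of member probe sets at least 2-fold lower, also 1, was 5 as deposited, 7 with the hybridisation controls, 3 with the 25th percentile floor and 2 at 1.5-fold. The count of probe sets at least 2-fold higher, 1, was 0 as deposited, with the hybridisation controls, with the 65th percentile floor and at 3-fold, and 2 with the 25th percentile floor. Over all genes 9.05% were lower in the main setting and 39.8% as deposited. Over all probe sets 9.01% and 35.1% were lower, and 8.41% and 1.2% higher. Such shares are not given for the other settings, so the counts there have no background beside them. No member gene was at least 2-fold higher by its brightest probe set under any of these alternatives. The median of measured member genes, -0.32, was -1.12 as deposited and -1.40 with the hybridisation controls, and between -0.56 and -0.13 under the others. Deposited ratios keep the dimmer knockout array. The hybridisation controls had a median deposited log2 ratio of 0.24, knockout over wild type, so scaling to them lowered knockout values further. Why the arrays differed in level was not tested. The brightest H2-Aa probe set stayed below 0 under all 7 alternatives tried for single probe sets (-2.92 to -1.29), and the Cd86 probe set called higher stayed above 0 (0.68 to 3.28), but the signs of the second measured H2-Aa probe set (-0.84 to 0.11), Cd74 (-1.10 to 0.15), Cd80 (-1.08 to 0.10) and Cd40 (-1.94 to 0.39) changed. Signals close to the floor limit all of these values.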

Other observations

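MHC class I genes, which present peptides from the cytosol to CD8+ T cells, were measured for 16 of 17 listed genes, with 2 higher by at least 2-fold, 1 lower and a median level-adjusted log2 ratio of -0.28. As deposited, 9 of the 16 were lower by at least 2-fold, 0 higher, and the median was -1.06. All genes gave 8.34% higher and 9.05% lower after level adjustment, and 1.19% and 39.8% as deposited. Canx, the endoplasmic reticulum chaperone calnexin, went from 315 to 53.8 (-1.38), although its other measured probe sets were at -0.42 and 0.71. B2m, the light chain of class I, went from 110.3 to 128 (1.37), above 0 on all scalings but that to the hybridisation controls, where it was at -0.07. Psmb8, an immunoproteasome subunit, was at 1.04 (18.1 to 17.8) and below 0 as deposited, with another probe set at 0.46. Tapbp, encoding tapasin, went from 53.1 to 12.4 (-0.99).

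The 2 probe sets annotated to both H2-DMb1 and H2-DMb2 went from 8.73 to 0.247 and from 9.22 to 4.14 between wild type and knockout. They cannot be assigned to either gene.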
